A study of Mus musculus with 4 samples.

Results

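De novo lipogenesis turns carbohydrate carbon into fatty acids, and the gene set described here holds 10 genes of that route: *Srebf1*, *Mlxipl*, *Acly*, *Acaca*, *Acacb*, *Fasn*, *Elovl6*, *Scd1*, *Me1* and *Thrsp*. They were chosen by symbol, from knowledge of the pathway but with earlier results of these data known. For each symbol the transcript with the highest mean promoter-proximal value was used. All 10 were among the 20642 gene symbols of the deposited table, and all 10 passed the filter for active genes, as did 12705 symbols in all. The filter asked for reads near the promoter and for more than 4 normalized reads per kb of gene body on average.

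The data are PRO-seq libraries (precision nuclear run-on sequencing, which maps RNA polymerases that are engaged in transcription) of liver nuclei from C57BL/6 mice on day 14 after birth, with 2 WT libraries (WT1, WT2) and 2 *Hdac3* KO libraries (KO1, KO2). WT mice were *Hdac3* +/+ and KO mice carried conditional alleles (F/F) or 1 conditional and 1 null allele (F/-), and both groups carried the Alb-Cre transgene. The albumin promoter is used to direct Cre to hepatocytes. Liver cells without Cre activity kept *Hdac3* in the F/F mice and 1 copy of it in the F/- mice. Which cells lost the gene was not measured. HDAC3 is a histone deacetylase that works within the NCoR and SMRT corepressor complexes. Each library was prepared from 20000000 nuclei pooled from several mice, so the tests measure the spread between pools and not between mice.

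In hepatocytes, citrate exported from mitochondria is split into cytosolic acetyl-CoA by ATP citrate lyase (*Acly*). Acetyl-CoA carboxylases (*Acaca* and *Acacb*) make malonyl-CoA, fatty acid synthase (*Fasn*) builds palmitate, *Elovl6* elongates it to stearate, and stearoyl-CoA desaturase (*Scd1*) introduces the double bond of oleate. Malic enzyme (*Me1*) supplies NADPH, and *Thrsp* encodes Spot 14, a nuclear and cytosolic protein tied to the lipogenic response. The route is driven by SREBP-1c (*Srebf1*), an insulin-responsive transcription factor, and ChREBP (*Mlxipl*), which responds to glucose metabolites. In suckling rodents the hepatic route is low, and it is switched on at weaning.

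Promoter windows of 300 bp, from 250 bp before to 50 bp after an annotated start site, were available from RefSeq (GRCm38.p6) for 9 of the 10 genes, and *Scd1* had none. They were searched on both strands for a sterol response element of the form TCACNCCAC, the E-box CACGTG, the CCAAT box, the GC box GGGCGG and the TATA box TATAAA. Of all 32851 windows of the table, 1.24%, 7.15%, 37.4%, 35.7% and 13.6% held these letters, in that order. Among the 9 genes, 1 window held TCACNCCAC (*Mlxipl*, as TCACACCAC 136 bp before the start), 0 held CACGTG, 4 held CCAAT (*Acly*, *Acacb*, *Fasn*, *Thrsp*), 3 held GGGCGG (*Srebf1*, *Acly*, *Me1*) and 1 held TATAAA (*Acacb*, 34 bp before the start). A match is a description of the letters and not of a bound site. Shown are the windows of *Thrsp* and *Elovl6*, whose reads rose in both regions measured, and of *Srebf1*, whose regions moved in opposite directions. Each is written 5′ to 3′ on the strand of the gene, with the matched letters on either strand in capitals.
Thrsp, chr7:97417501-97417800, minus strand: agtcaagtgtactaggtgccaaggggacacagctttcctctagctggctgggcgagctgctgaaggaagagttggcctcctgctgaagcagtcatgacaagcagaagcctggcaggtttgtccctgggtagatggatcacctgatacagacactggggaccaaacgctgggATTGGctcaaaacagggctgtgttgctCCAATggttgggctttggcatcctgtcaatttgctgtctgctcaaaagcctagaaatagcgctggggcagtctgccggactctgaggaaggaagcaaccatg
Elovl6, chr3:129532136-129532435, plus strand: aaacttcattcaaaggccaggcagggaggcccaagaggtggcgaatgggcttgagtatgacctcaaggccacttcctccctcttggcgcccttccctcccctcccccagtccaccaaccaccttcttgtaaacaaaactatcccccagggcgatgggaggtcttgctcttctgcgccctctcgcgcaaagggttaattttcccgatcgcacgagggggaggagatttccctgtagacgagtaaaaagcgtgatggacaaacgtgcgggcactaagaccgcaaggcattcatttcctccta
Srebf1, chr11:60220578-60220877, minus strand: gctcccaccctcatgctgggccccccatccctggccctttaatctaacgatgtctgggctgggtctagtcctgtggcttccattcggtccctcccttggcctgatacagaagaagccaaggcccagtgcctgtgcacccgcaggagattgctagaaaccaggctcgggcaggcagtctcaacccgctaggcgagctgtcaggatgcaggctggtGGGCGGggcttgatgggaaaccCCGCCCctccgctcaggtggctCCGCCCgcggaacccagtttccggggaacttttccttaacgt
The *Thrsp* window held a CCAAT box 52 bp before the start site and an inverted one 79 bp before it. In GENCODE M21 the transcript starts 180 bp upstream of this start site, at a position inside the window. Both boxes lie downstream of the GENCODE start and upstream of the RefSeq one. The deposited values give no start positions, so whether the boxes lie within the transcript measured or before it is not resolved. The *Srebf1* window held 3 GC boxes, 36 and 14 bp before the start and 8 bp after it, and the *Elovl6* window held none of the letters searched. This *Srebf1* start is the downstream of 2 nearby starts of the RefSeq table, 1954 bp from the other. A further start lies 10.2 kb downstream within the measured gene body, and the annotated gene begins 3.58 kb upstream of the transcript used.

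For each transcript the table gives the reads of the gene body, counted from 1 kb past the start site to the termination site, and of the promoter-proximal region, the most heavily covered 50 bp window near the start. Both are multiplied by 1 scaling factor per library, from 1 in WT2 to 1.52 in KO2, and are called normalized reads. The libraries held 16628518 to 26190040 reads on genes, with KO2 the shallowest, and 9.38% and 10.3% of the reads of WT libraries were promoter-proximal against 13.6% in KO1 and 17.0% in KO2. Gene body reads of *Hdac3* did not show the deletion (log2 fold change -0.14, standard error 0.13, adjusted p = 0.413 from limma), so the genotypes rest on the labels. Hepatocyte markers (*Alb*, *Ttr*, *Apoa1*, *Apoc3*, *Cps1*, *Serpina1a*) were abundant in every library, with summed gene body reads of 239421 and 240603 in WT and 112400 and 106880 in KO, and 5 of the 6 fell. Sums of 6 stellate cell and fibroblast markers were 8551 to 9647 in WT and 15994 to 17409 in KO, with 6 up, and sums of 5 endothelial markers were 47640 to 51572 in WT and 80297 to 89955 in KO, with 4 up. Of the 5 Kupffer cell and myeloid markers, 4 were in the table and 0 were called. Erythroid markers (3 of 5 in the table) summed to 615 and 787 in WT and to 283 and 228 in KO, with 3 down. Cholangiocyte markers summed to 100 to 167 reads, and 1 of the 2 active ones fell. In such tissue libraries, fewer cells of a type and fewer polymerases per cell cannot be told apart, and the part of the cell mix in the changes given here was not tested.

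KO and WT were compared with limma on log2 of the normalized reads after adding 1, with Benjamini-Hochberg adjustment over the 12705 active genes. Calls, up or down, required both an adjusted p below 0.05 and a log2 fold change beyond 0.6 in either direction. In gene bodies, 4 of the 10 lipogenesis genes were called up (*Thrsp*, *Scd1*, *Elovl6*, *Acacb*) and 1 down (*Srebf1*). Among all active genes, 10.4% were called up and 11.4% down, 21.8% in all. The median log2 fold change of the 10 genes was 0.44, beside -0.09 over active genes. KO libraries lay both above or both below the WT libraries for 9 of the 10 genes, 5 above and 4 below, which was so for 70.5% of active genes, 27.6% above and 42.8% below.

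**Figure D1:**
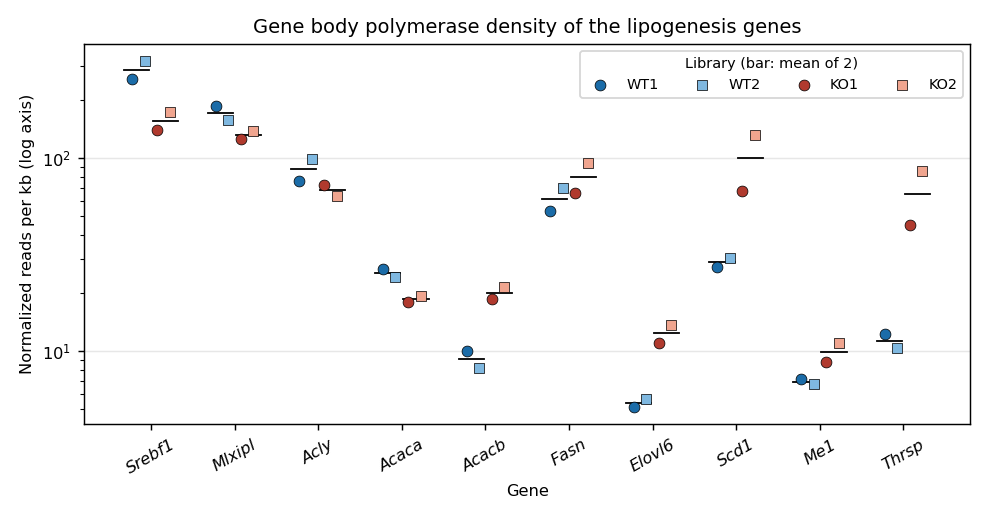
Gene body density (normalized reads per kb, log axis) of the 10 genes in each of the 4 libraries, with WT and KO libraries as separate points and bars at the mean of each group. *Srebf1* was the densest gene in every library, and the KO points lie clearly above the WT points for *Acacb*, *Elovl6*, *Scd1* and *Thrsp* and below them for *Srebf1*.

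*Srebf1* (chr11:60199084-60224186, minus strand) had 5285 and 6512 normalized gene body reads in WT1 and WT2 and 2884 and 3538 in KO1 and KO2. Both KO libraries were below both WT libraries, a fall of 1.84-fold (log2 fold change -0.88, standard error 0.12, adjusted p = 3.58e-06). The other lipogenic transcription factor, *Mlxipl* (chr5:135089890-135139768, plus strand), had 5652 and 4815 reads in WT and 3815 and 4216 in KO. Its KO libraries also lay below, but the log2 fold change of -0.38 (adjusted p = 0.00942, standard error 0.11) was short of the threshold on the fold change. Summed hepatocyte markers were lower in the same KO libraries, as given above. An annotated *Mlxipl* start lies 17.0 kb upstream of the transcript used, so polymerases from that start also cross the measured region.

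*Acly* (chr11:100476352-100528000, minus strand), which makes the cytosolic acetyl-CoA, had 3856 and 5031 gene body reads in WT and 3684 and 3232 in KO. The log2 fold change was -0.35 (adjusted p = 0.0260, standard error 0.12) and was not called. WT1 lay closer to KO1 than to WT2, and the difference between the group means was smaller than that between the WT libraries. The value was -0.16 without WT2 (adjusted p = 0.397, limma) and -0.54 without WT1.

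Of the acetyl-CoA carboxylases, *Acacb* was called up and *Acaca* was not called. *Acaca* (chr11:84129635-84401651, plus strand), which encodes the cytosolic ACC1, had 5458 and 4956 gene body reads in WT and 3695 and 3943 in KO (log2 fold change -0.45, standard error 0.11, adjusted p = 0.00190, short of the threshold on the fold change). *Acacb* (chr5:114146321-114250761, plus strand), which encodes ACC2 of the mitochondrial outer membrane, had 843 and 690 reads in WT and 1577 and 1813 in KO. It rose 2.21-fold (log2 fold change 1.15, standard error 0.13, adjusted p = 1.49e-07), and its KO libraries were both well above WT. Per kb of gene body, the density of *Acacb* was 0.376 and 0.339 of that of *Acaca* in the WT libraries and 1.04 and 1.12 of it in the KO libraries.

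*Fasn* (chr11:120805958-120825166, minus strand) had 932 and 1238 gene body reads in WT and 1163 and 1653 in KO, so the groups overlapped. The log2 fold change was 0.37 with a 95% interval of 0.06 to 0.68 and was not called (adjusted p = 0.0566, limma). *Me1* (chr9:86581363-86695914, minus strand) had 812 and 766 reads in WT and 999 and 1257 in KO. Both KO libraries were higher, but the log2 fold change of 0.51 (adjusted p = 0.00316, standard error 0.13) was under the threshold on the fold change. Without KO1, *Fasn* (0.62) and *Me1* (0.67) were both called up, while without KO2 the values were 0.11 and 0.34 and without WT1 that of *Fasn* was 0.16.

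The genes of the enzymes that elongate and desaturate palmitate rose. *Elovl6* (chr3:129532386-129638495, plus strand) had 539 and 596 gene body reads in WT and 1165 and 1444 in KO, a rise of 2.30-fold (log2 fold change 1.19, standard error 0.13, adjusted p = 1.38e-07). *Scd1* (chr19:44394450-44407709, minus strand) had 335 and 374 reads in WT and 833 and 1615 in KO, a rise of 3.45-fold (log2 fold change 1.71, standard error 0.19, adjusted p = 1.86e-07). The WT libraries of both genes were close together and the KO libraries were all higher, with the *Scd1* value of KO2 1.94 times that of KO1. *Scd1* ranked 65th and *Elovl6* 325th of the active genes by log2 fold change. *Scd1* and *Scd2* are near-identical in parts of their coding sequence, so reads shared between them are uncertain.

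*Thrsp* (chr7:97412933-97417550, minus strand) rose most of the 10 genes. Its gene body held 43.6 and 37 reads in WT and 159 and 305 in KO, a rise of 5.76-fold (log2 fold change 2.43, standard error 0.26, adjusted p = 8.67e-08). This was the 9th largest log2 fold change of all active genes. The measured gene body is short (3.55 kb), and the WT values rest on 38 and 37 recovered reads. As for *Scd1*, KO2 stood above KO1, by 1.92 times, and KO2 was the higher KO library for 9 of the 10 genes. *Scd1*, *Thrsp* and *Plin1* are also abundant in adipocytes, and of 4 adipocyte markers *Plin1* rose (34.4 and 39 reads in WT, 65.8 and 117 in KO), while *Adipoq* had 1.15 and 4 reads in WT and 2.12 and 6.07 in KO. *Lep* was at 0 in 3 libraries with 3.04 reads in KO2, and *Cidea* had 3.44 and 4 reads in WT and 1.06 and 0 in KO. The part of these cells in the *Scd1* and *Thrsp* values was not tested.

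All 5 gene body calls were kept when any 1 library was left out, under other scalings and with edgeR or DESeq2 on the recovered reads. They were lost when inactive genes were added to the test (adjusted p from 0.0607 to 0.125, limma), with the log2 fold changes themselves the same.

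The changes altered the order of the genes by density. In WT, mean gene body densities in normalized reads per kb were 287 for *Srebf1*, 172 for *Mlxipl*, 87.7 for *Acly*, 61.7 for *Fasn*, 28.9 for *Scd1*, 25.4 for *Acaca*, 11.3 for *Thrsp*, 9.10 for *Acacb*, 6.95 for *Me1* and 5.40 for *Elovl6*. No neighbours in this order overlapped in their WT libraries. *Srebf1* thus stood at the 97.5th percentile of active genes in WT and *Elovl6* at the 4.45th. In KO, densities were 157 for *Srebf1*, 132 for *Mlxipl*, 99.8 for *Scd1*, 80.0 for *Fasn*, 68.3 for *Acly*, 65.3 for *Thrsp*, 20.1 for *Acacb*, 18.6 for *Acaca*, 12.4 for *Elovl6* and 9.94 for *Me1*. KO libraries of neighbouring genes overlapped from *Mlxipl* to *Thrsp* and between *Acacb* and *Acaca*, so the order within these stretches is not resolved. The highest density was 53.2 times the lowest in WT and 15.8 times in KO.

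In promoter-proximal regions, 4 of the 10 genes were called up (*Elovl6*, *Thrsp*, *Scd1*, *Srebf1*) and 0 down. Among active genes 25.8% were called up and 2.2% down, 28.0% in all, and the median log2 fold change was 0.56, so the region as a whole was higher in KO on the deposited scale. The median of the 10 genes was 0.84, and 4 of the 10 were below the median of active genes. KO libraries were both above WT for 5 of the 10 genes and both below for 0, which was so for 61.9% and 6.72% of active genes (68.6% in all). With median-of-ratios scaling within the region, which sets the median of active genes near 0, 40.2% of the calls over active genes were up against 92.1% on the deposited scale, and 2 of the 10 genes were called up, *Elovl6* and *Thrsp*.

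**Figure D2:**
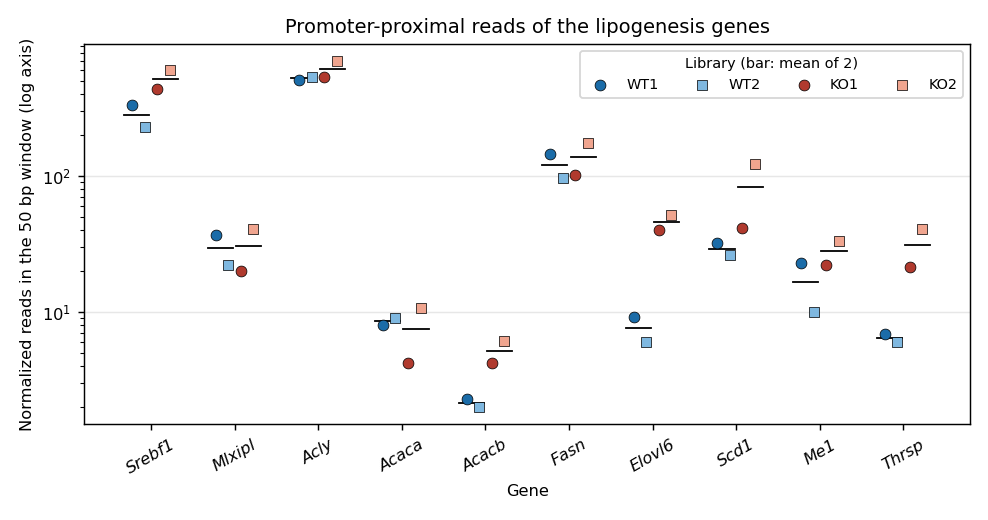
Promoter-proximal normalized reads (log axis) of the 10 genes in each of the 4 libraries, with bars at group means. KO points lie above both WT points for *Srebf1*, *Acacb*, *Elovl6*, *Scd1* and *Thrsp*, and the points of *Acaca* and *Acacb* rest on under 10 recovered reads.

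*Elovl6* showed the largest promoter-proximal difference. It had 9.18 and 6 normalized reads in WT and 40.3 and 51.6 in KO, a rise of 6.06-fold (log2 fold change 2.47, standard error 0.43, adjusted p = 1.79e-06), the 24th largest of active genes. The groups were far apart, and the rise was kept without each library in turn and with scaling within the region (1.93). *Thrsp* had 6.88 and 6 reads in WT and 21.2 and 41.0 in KO, a rise of 4.83-fold (log2 fold change 2.04, standard error 0.45, adjusted p = 0.000185, limma). Its KO libraries were also both above WT, but the call was lost without KO2 (1.58, adjusted p = 0.0746, limma). These values rest on 6 recovered reads in each WT library for *Thrsp* and on 8 and 6 for *Elovl6*, and with a pseudocount of 10 the log2 fold changes were 1.28 and 1.67, both still called.

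*Scd1* had 32.1 and 26 promoter-proximal reads in WT and 41.4 and 123 in KO (log2 fold change 1.28, standard error 0.38, adjusted p = 0.00759, limma). KO1 was near WT and KO2 far above it, and the value without KO2 was 0.50 (adjusted p = 0.471, limma). *Srebf1* had 330 and 228 reads in WT and 434 and 595 in KO (log2 fold change 0.89, standard error 0.30, adjusted p = 0.0191, limma), again with KO2 the highest. Both calls were lost without WT1, without WT2, without KO2 and with scaling within the region. The log2 fold changes of *Srebf1* were then 1.15, 0.62, 0.66 and 0.32, and those of *Scd1* were 1.42, 1.13, 0.50 and 0.72, so without WT1 the values were larger although the adjusted p was not under 0.05. Without KO1, *Scd1* was at 2.05. When the median-of-ratios factors of gene bodies were applied to both regions, both calls were kept (0.97 for *Srebf1* and 1.36 for *Scd1*). With the replicate number as a block, the adjusted p of *Srebf1* was 0.0684 (limma).

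The other 6 genes were not called in this region. *Acly* had the most reads of the 10 genes, with 507 and 533 in WT and 528 and 694 in KO (log2 fold change 0.22, 95% interval -0.35 to 0.79). *Fasn* had 145 and 96 reads in WT and 101 and 175 in KO (0.17, interval -0.49 to 0.83), and *Mlxipl* had 36.7 and 22 in WT and 20.2 and 41.0 in KO (0.02, interval -0.78 to 0.82). For all 3, the groups overlapped and the interval held 0, and the sign turned negative with scaling within the region. *Me1* had 22.9 and 10 reads in WT and 22.3 and 33.4 in KO, a log2 fold change of 0.80 (interval -0.04 to 1.64). *Acaca* had 7 and 9 recovered reads in WT and 4 and 7 in KO, and *Acacb* had 2 and 2 in WT and 4 and 4 in KO, with 95% intervals of the log2 fold change of -1.25 to 0.68 and -0.11 to 2.02. The start sites used lie 65.8 kb (*Acaca*) and 19.2 kb (*Acacb*) inside the annotated genes, and the windows at the upstream ends were not analysed here. KO2 was above KO1 in all 10 genes. Over active genes, the median ratio of promoter-proximal reads to the geometric mean of the 4 libraries was 1.07 in KO1 and 1.39 in KO2. KO2 was thus the higher library in this region in general, and not only for these genes.

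**Figure D3:**
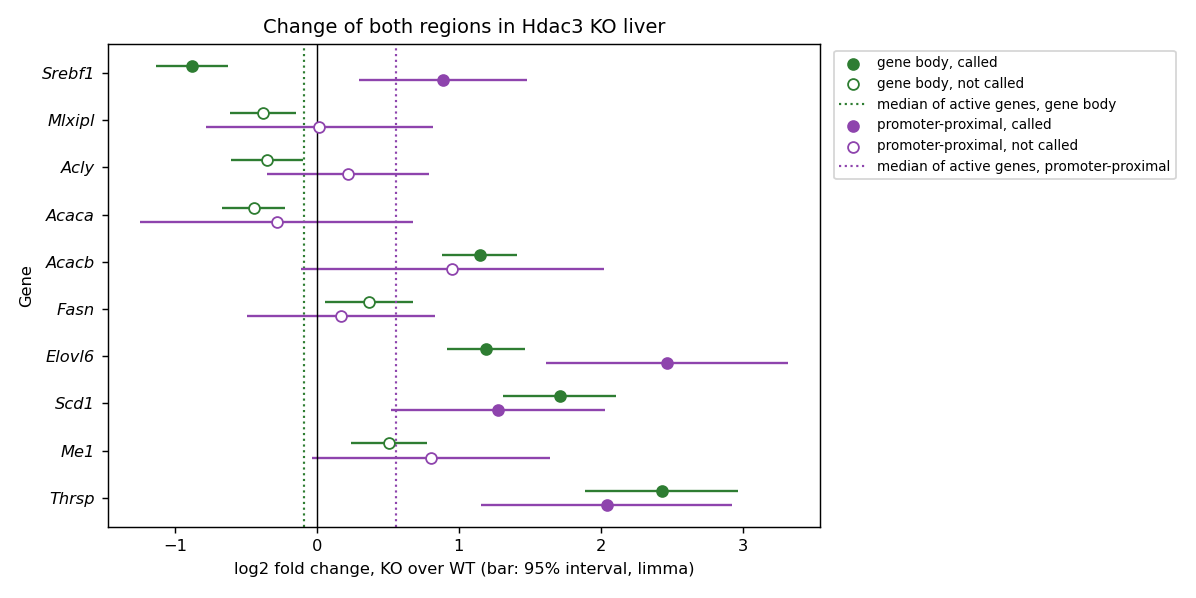
Log2 fold change (KO over WT) of each gene in gene bodies and promoter-proximal regions, with 95% limma intervals as bars, filled points for called genes and dotted lines at the medians of active genes. *Srebf1* is the gene with called changes on opposite sides of 0, and *Elovl6*, *Scd1* and *Thrsp* were called up in both regions.

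The pausing index, promoter-proximal density divided by gene body density, compares the regions of 1 gene. It was called up for *Srebf1* and *Elovl6* and down for 0 of the 10 genes, beside 11.2% up and 0.543% down among active genes, whose median log2 fold change was 0.61. For *Srebf1* the index was 25.7 and 14.4 in WT and 61.7 and 69.0 in KO (log2 fold change 1.76, standard error 0.40, adjusted p = 0.00190, limma), the 93rd largest of active genes. For *Elovl6* it was 35.8 and 21.2 in WT and 72.8 and 75.2 in KO (log2 fold change 1.27, standard error 0.44, adjusted p = 0.0415, limma). KO libraries were above WT for these genes and for *Acly*, 3 of the 10 beside 62.7% of active genes. The calls of *Srebf1* and *Elovl6* were lost without WT1 or without WT2 and with scaling within each region. The call of *Elovl6* was also lost without KO2, with a pseudocount of 10 or 0.1 and with the replicate block (adjusted p = 0.141, limma).

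**Figure D4:**
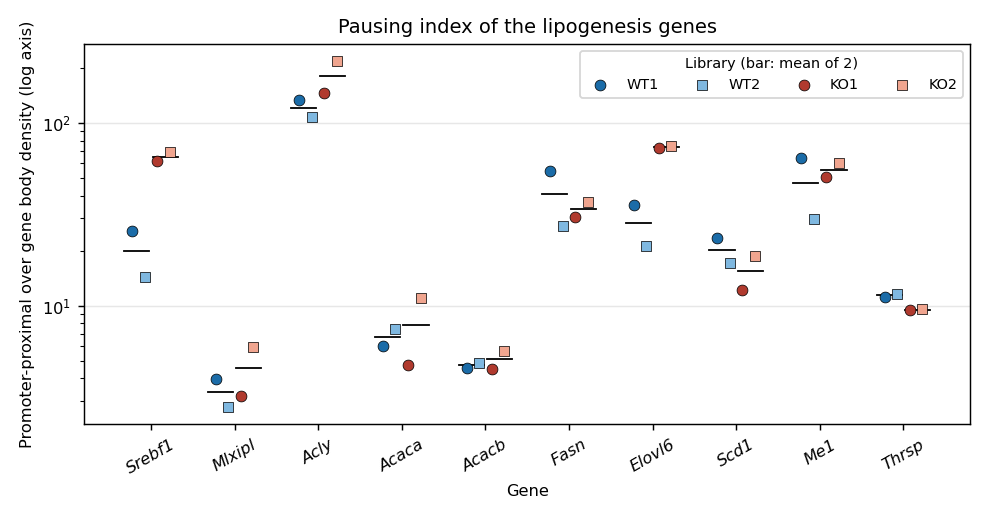
Pausing index (ratio of densities, log axis) of the 10 genes in each of the 4 libraries, with bars at group means. The KO points of *Srebf1* and *Elovl6* lie above both WT points, and those of *Thrsp* lie close to its WT points.

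*Scd1* and *Thrsp*, which rose in both regions, had log2 fold changes of the index of -0.43 and -0.39, and neither was called. For *Thrsp* the index was 11.2 and 11.5 in WT and 9.48 and 9.55 in KO. *Acly* had the highest indices of the set, 133 and 107 in WT and 145 and 217 in KO (0.57, adjusted p = 0.266, limma), and *Mlxipl* among the lowest, 3.96 and 2.79 in WT and 3.22 and 5.93 in KO (0.40, adjusted p = 0.522, limma). In all, 8 of the 10 genes were below the median change of active genes. The annotated genes of *Mlxipl*, *Srebf1*, *Acaca* and *Acacb* begin upstream of the start used. Polymerases from upstream starts can cross their measured gene bodies, so their indices may not describe the start used alone. For *Srebf1*, the annotated start 10.2 kb downstream lies within the measured gene body. Its gene body reads can therefore come from a different start than its promoter-proximal reads, and the share of each start was not tested.

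The neighbouring steps of the pathway were described with 4 lists of other genes, none of them members of the set. Genes counted as risen or fallen in these lists are those called up or down. In the list of SREBP processing and partner regulators, 0 of 12 active genes rose and 1 fell in gene bodies, near the share of 11.4% down. The median log2 fold change of the 12 was -0.35, beside -0.09 over active genes, and 3 of the 12 values were above 0. The gene that fell was *Insig2*, an endoplasmic reticulum protein that retains SCAP and SREBP, with 5851 and 5754 reads in WT and 3656 and 3638 in KO (-0.67, adjusted p = 1.67e-05, limma). It also fell in the promoter-proximal region, from 157 and 76 reads in WT to 34.0 and 41.0 in KO (-1.53, adjusted p = 0.000663, limma). The *Insig1* gene body values were 1106 and 934 reads in WT and 989 and 1057 in KO. It was looked up after the values were seen.

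Of 11 genes of carbohydrate use, citrate export, acetate and NADPH supply, 0 rose and 1 fell in gene bodies (median 0.06), again near the share of active genes that fell, 11.4%. *Pklr*, the liver pyruvate kinase, fell from 546 and 636 reads in WT to 345 and 360 in KO (-0.74, adjusted p = 0.000193, limma). In the promoter-proximal region, on the deposited scale and beside 25.8% up over active genes, 4 of the 11 rose and 0 fell. The 4 were *Pdha1* (1.27), *G6pdx* (0.99), *Cs* (0.97) and *Pgd* (0.94), named after their values were seen, and none of the 4 was called in the gene body, where the log2 fold changes were 0.06 to 0.21.

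Of 18 active genes of fatty acid activation, elongation, desaturation and glyceride assembly (19 listed), 1 rose and 6 fell, beside 10.4% and 11.4% of active genes, with a median of -0.38. *Lpin1*, a phosphatidate phosphatase and transcriptional coregulator, fell 4.47-fold from 18610 and 13655 reads to 4028 and 3193 (-2.15, adjusted p = 3.78e-11, limma). *Elovl2*, which elongates polyunsaturated fatty acids, fell from 9783 and 8388 reads to 3867 and 3454 (-1.31, adjusted p = 3.17e-09, limma). The other 4 that fell, named after their values were seen, were *Dgat2* (-1.23), *Acsl1* (-1.20), *Elovl5* (-1.07) and *Agpat2* (-0.79). *Scd2*, a desaturase paralog of *Scd1*, was the gene that rose, from 599 and 647 reads to 1044 and 903 (0.64, adjusted p = 0.000310, limma). In this list 3 genes fell and 1 rose in the promoter-proximal region, beside 2.2% down and 25.8% up over active genes.

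Of 8 genes of the AMP-activated kinase, which phosphorylates and inhibits acetyl-CoA carboxylases, and of malonyl-CoA breakdown, 1 rose and 3 fell (median -0.34), beside 10.4% and 11.4% of active genes. The catalytic subunit gene *Prkaa2* fell from 1986 and 1569 reads to 833 and 858 (-1.06, adjusted p = 3.75e-07, limma), and the regulatory subunit gene *Prkag2* fell from 15193 and 14895 to 8727 and 9400 (-0.73, adjusted p = 9.74e-06, limma). *Mlycd*, which encodes malonyl-CoA decarboxylase, also fell (-0.72) and is named after its value was seen. *Prkab2* rose from 142 and 208 reads to 264 and 304 (0.72, adjusted p = 0.00379, limma). In the promoter-proximal region 2 of the 8 genes rose and 0 fell, a share up close to the 25.8% of active genes.

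**Figure D5:**
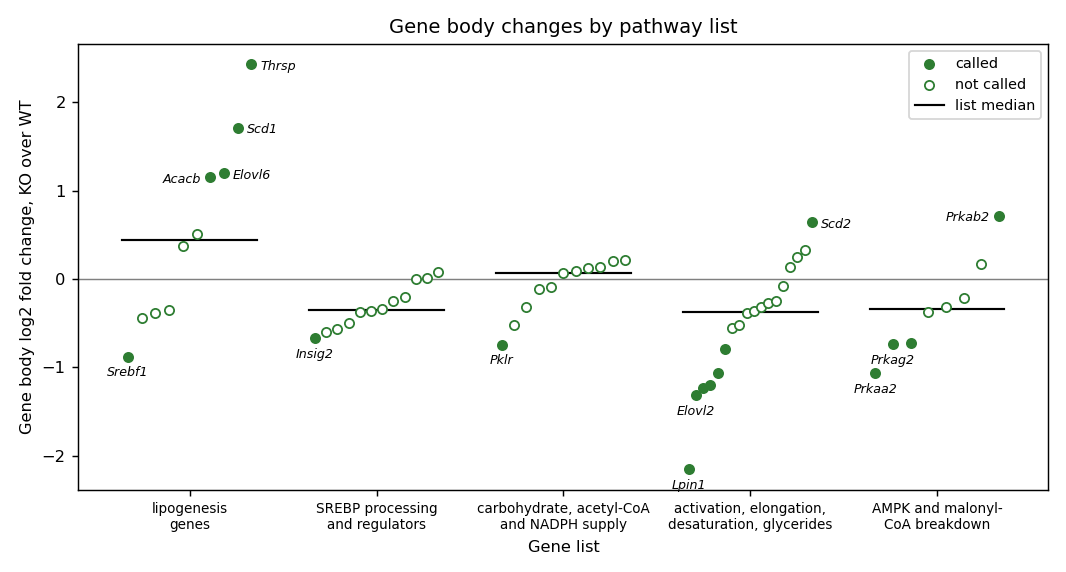
Gene body log2 fold change (KO over WT) of the 10 lipogenesis genes and of the 4 lists, with 1 point per active gene, filled points for called genes and a line at the median of each list. The lipogenesis genes spread from -0.88 to 2.43 around a median of 0.44, and the medians of the lists lie from -0.38 to 0.06.

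The deposited list of 2282 enhancers was made from the pooled reads of the 4 libraries and holds no value per library. By the paper's method it covers intergenic transcripts only, without those close to RefSeq genes. Within 50 kb of the start sites of the 10 genes it held an enhancer for 1, *Acaca*, beside 9.83% of active genes. This region, chr11:84178014-84186397, is 8.38 kb long and lies 9041 bp upstream of the start site used. It falls inside the *Acaca* gene as annotated here. *Elovl6* was the closest gene of chr3:129338187-129339545, which is 193 kb from its start site. The nearest listed enhancer of *Scd1* was 122 kb away and that of *Thrsp* 330 kb away. Enhancers inside or close to genes were outside the scope of the list, so these distances do not show that nearer ones are absent.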

How the data were processed

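PRO-seq reads of the 4 libraries were trimmed with cutadapt, aligned to mm10 with Bowtie2, cleared of ribosomal reads and of reads with a mapping quality under 10, and counted per RefSeq transcript on the coding strand with NRSA by the authors. The deposited values of WT2 are read counts, since its scaling factor is 1. Those of WT1, KO1 and KO2 are normalized signal, the authors' read counts multiplied by a factor per library for total mapped reads, and the deposited densities give that signal per base. Division by these factors returned whole reads for 100% of 41640 values per library (tolerance 0.01 of a read). The enhancer file lists positions and linked genes.

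The members and pathway lists were chosen with earlier results of these data known. For this reason no list was given a test. Of the list of carbohydrate use and NADPH supply, 2 genes are not reported here and are left out of its counts and plot. From each list, the text names the 2 largest rises and the 2 largest falls by gene body change among called genes whose groups did not overlap, with a mean of at least 50 reads. Log2 values of the normalized reads plus 1, and of the ratio of the regions for the pausing index, were compared in R 4.3.3 with limma 3.58.1, using a mean-variance trend and no block. Per-kb values divide by the gene body length. Alternatives used edgeR 4.0.16 and DESeq2 1.42.0 on recovered reads, pseudocounts of 0.1 and 10, other scalings, no filter, no fold threshold, another transcript choice, a replicate block and leaving out each library. Same-numbered libraries carry only a shared number in the labels. Gene coordinates are from RefSeq, and transcript start sites are those of the matching GENCODE M21 transcripts. Tables and plots were made with Python 3.11.15, pandas 2.3.3 and matplotlib 3.10.9.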

Additional observations from a re-analysis of the deposited data

How the results depend on the processing

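Gene body calls, 2773 over active genes, were 995 over all gene symbols with no filter on activity (0 of the 10 lipogenesis genes up and 0 down) and 4968 with no threshold on the fold change, where 4 of the 10 were down. Leaving out each library gave 4 to 6 of the 10 up, and the log2 fold change ranged from 0.11 to 0.62 for *Fasn*, -0.54 to -0.16 for *Acly* and 0.34 to 0.67 for *Me1*. Of the gene body values of the 10 genes under alternatives, 143 kept their direction and side of the threshold, 5 lost the call (no filter) and 2 gained it (without KO1). Median-of-ratios scaling moved the share of gene body calls that were up from 47.7% to 56.2%.

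Promoter-proximal calls, 3562 in all, were 0 with no filter (0 of the 10 up), 1576 with scaling within the region (2 of the 10 up), 1699 with edgeR and TMM scaling (2 up), 1949 with the replicate block, and 402 to 3704 when each library was left out (1 to 4 up). Median-of-ratios factors of gene bodies, applied to both regions, gave 3212 promoter-proximal calls, with 4 of the 10 up. With scaling within the region and with edgeR and TMM scaling, the log2 fold change turned negative for *Mlxipl* (-0.54 and -0.56), *Acly* (-0.35 and -0.36) and *Fasn* (-0.40 and -0.41). Leaving out each library, it ranged from -0.48 to 0.51 for *Mlxipl*, -0.22 to 0.56 for *Fasn* and -0.86 to 0.29 for *Acaca*. The index change ranged from -0.026 to 0.82 for *Mlxipl*, -0.36 to 0.69 for *Acaca*, -0.70 to 0.30 for *Fasn* and -0.22 to 0.81 for *Me1*. Pausing index calls, 1490 in all, were 2509 with a pseudocount of 10 (1 of the 10 up, 2 down, *Acacb* and *Thrsp*), 0 with no filter (0 up), 14 with scaling within the region (0 up), 148 with the replicate block (1 up) and 31 to 4687 when each library was left out (0 to 2 up). With a pseudocount of 0.1, 1 of the 10 was up, and the index change of *Acacb* was 0.059. With scaling within the region it was -0.24 for *Mlxipl*, -0.080 for *Acly*, -0.43 for *Acaca* and -0.33 for *Me1*. The cause of these shifts was not tested.

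Residuals of same-numbered libraries had a correlation of 0.02 in gene bodies and -0.11 in promoter-proximal regions, so the block is given only as an alternative. In gene bodies it gave 2773 calls and changed no call of the 10 genes. Crossing the numbers, chosen after seeing the data, gave 5260 promoter-proximal and 4252 pausing index calls. Depth limits the promoter-proximal values of *Acaca*, *Acacb*, *Thrsp* and WT *Elovl6*, which rest on few reads. The reads count engaged polymerases and not mRNA.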
